A study of Mus musculus with 12 samples.

Results

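The unfolded protein response and the amino acid response of mouse liver were described through 10 genes: Hspa5, Hsp90b1, Pdia4, Dnajb9, Xbp1, Herpud1, Atf4, Ddit3, Trib3 and Asns. They were chosen by symbol, and all 10 were found among the 25164 genes listed and passed the filter on low counts. The study collected livers after 14 weeks from mice in 3 groups, with 4 libraries sequenced per group and 10 mice assigned to each. Mice of the HFD + fenofibrate group were kept on a high-fat diet throughout and were gavaged with fenofibrate during the final 4 weeks, once 10 weeks of diet had passed. HFD mice ate the high-fat diet for 14 weeks without the drug, and Control mice ate a normal diet for the same time. Fenofibrate, a drug prescribed to lower blood lipids, is an agonist of the nuclear receptor PPARA. The sources used here do not give the strain, sex, age, drug dose or time of day of collection. Below, the HFD + fenofibrate group is called the fenofibrate group.

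The endoplasmic reticulum (ER) folds secreted and membrane proteins, of which the hepatocyte makes large amounts. When unfolded proteins accumulate there, sensors in the ER membrane start the unfolded protein response. One branch, through IRE1 and the spliced form of Xbp1, and another, through ATF6, raise chaperones, folding enzymes and components of ER-associated degradation. A further branch, through the kinase PERK, phosphorylates the translation factor eIF2alpha, slows translation in general and favours translation of Atf4. Lack of amino acids reaches the same factor through the kinase GCN2, so that Atf4 and its targets, among them Ddit3, Trib3 and Asns, are also known as the amino acid response.

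Total counts per library ran from 15797016 to 18514481, and 13477 genes were tested. All 10 defining hepatocyte markers were detected, and their summed level was 112703.5 to 130228.0 CPM (counts scaled to a common library size) in fenofibrate livers, 118140.2 to 128942.6 CPM in HFD livers and 129084.8 to 139341.2 CPM in Control livers. Fenofibrate libraries 1 and 3 stood apart. Fenofibrate library 1 held 2064.9 CPM of 12 pancreatic acinar markers in sum, against 9.02 to 13.9 CPM in fenofibrate libraries 2 to 4, 18.2 to 31.1 CPM in HFD and 6.24 to 9.92 CPM in Control. No count was found for 9 of the 12 in HFD libraries and for 9 in Control libraries, Cpa1 and Pnlip among them in both. Of 6 striated muscle markers these libraries held 162 and 122 CPM in sum, and every other library held at most 0.966 CPM. Where calls named below were lost without both of these libraries, this is stated in the same or a later paragraph.

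The regions before the start sites of 4 of the genes are shown because they hold the sequence motifs for which these pathways are known: the ER stress response element (ERSE) bound by ATF6 with NF-Y, its shorter variant ERSE-II, and the CARE element bound by ATF4. Each is the 250 bases before the RefSeq start in GRCm38.p6, written 5′ to 3′ on the strand of the gene, with the fixed letters of motif matches in capitals. The regions are chr2:34771840-34772089 (plus strand) for Hspa5, chr10:86705445-86705694 (minus strand) for Hsp90b1, chr8:94386179-94386428 (plus strand) for Herpud1 and chr6:7693210-7693459 (minus strand) for Asns.
Hspa5: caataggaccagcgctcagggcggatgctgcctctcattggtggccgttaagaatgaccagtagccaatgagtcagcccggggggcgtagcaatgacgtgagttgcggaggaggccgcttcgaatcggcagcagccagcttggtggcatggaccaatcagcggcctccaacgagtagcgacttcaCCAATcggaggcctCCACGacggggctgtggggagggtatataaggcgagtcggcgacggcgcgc
Hsp90b1: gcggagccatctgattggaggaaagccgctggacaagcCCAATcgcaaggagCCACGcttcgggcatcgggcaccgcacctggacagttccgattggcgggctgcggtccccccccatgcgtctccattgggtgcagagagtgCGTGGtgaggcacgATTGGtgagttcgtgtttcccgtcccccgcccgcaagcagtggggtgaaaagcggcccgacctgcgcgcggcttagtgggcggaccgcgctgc
Herpud1: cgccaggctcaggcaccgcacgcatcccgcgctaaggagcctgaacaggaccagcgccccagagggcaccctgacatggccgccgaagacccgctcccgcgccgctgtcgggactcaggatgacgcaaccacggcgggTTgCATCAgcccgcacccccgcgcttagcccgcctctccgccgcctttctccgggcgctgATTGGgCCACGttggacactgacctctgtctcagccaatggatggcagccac
Asns: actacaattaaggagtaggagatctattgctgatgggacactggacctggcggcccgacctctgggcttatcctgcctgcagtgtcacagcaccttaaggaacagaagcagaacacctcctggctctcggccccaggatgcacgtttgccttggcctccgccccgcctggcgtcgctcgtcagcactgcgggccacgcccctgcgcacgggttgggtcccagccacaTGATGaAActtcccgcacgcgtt

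In Hspa5 the capitals mark an ERSE (CCAAT and CCACG with 9 bases between them) from -65 to -47 of the start site, in Hsp90b1 an ERSE from -212 to -194 and another in reverse from -107 to -89. In Herpud1 they mark an ERSE-II (ATTGG and CCACG with 1 base between them) from -52 to -42 and a CARE (TGATGNAA) in reverse from -112 to -105, and in Asns a CARE from -23 to -16. Over 300-base windows, which add the 50 bases after each start, an ERSE was found on either strand in 39 of 32851 RefSeq promoters (0.119%), an ERSE-II in 12 (0.0365%) and a CARE in 1304 (3.97%). The Trib3 window held a CARE in reverse within the transcribed bases. The windows of Pdia4, Dnajb9, Xbp1, Atf4 and Ddit3 held no exact match to these motifs or to the core TGACGTGG of the XBP1-bound element, which says only that these letters are absent from those windows.

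Levels of single genes below are CPM after TMM scaling, a correction of library sizes for differences in composition. Genes were said to have risen or fallen where the adjusted p of edgeR's quasi-likelihood test, over all genes tested, was under 0.05. Log2 fold changes are given ± SE. The labels do not say how mice shared cages or how libraries shared runs, and p-values here reflect only how these libraries vary, which may be technical.

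Between HFD and Control, 3 of the 10 genes passed. Relative to Control, Herpud1 rose in HFD livers, Asns and Atf4 fell, and 7 genes did not pass. Over all genes tested, 12.8% were called (6.13% risen and 6.64% fallen). The groups did not overlap for those 3 genes, and 17.6% of all genes tested had no overlap, so a gap between 4 and 4 libraries was common. With fenofibrate relative to HFD, Trib3 rose and the other 9 genes did not pass, while 13.5% of all genes were called (6.89% risen and 6.59% fallen). Trib3 and Hsp90b1 had no overlap between fenofibrate and HFD, as had 20.7% of all genes. Against Control, fenofibrate livers had lower Asns and Atf4, with 8 genes not passing and 9.17% of all genes called (4.86% risen and 4.31% fallen). Between these groups 4 of the 10 had no overlap, as had 13.1% of all genes. The median log2 fold change of the 10 genes was 0.24 for HFD over Control, -0.18 for fenofibrate over HFD and -0.06 for fenofibrate over Control, against -0.02, 0.01 and -0.01 over all genes tested. The comparison of fenofibrate with HFD and that of HFD with Control share the HFD libraries.

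**Figure D1:**
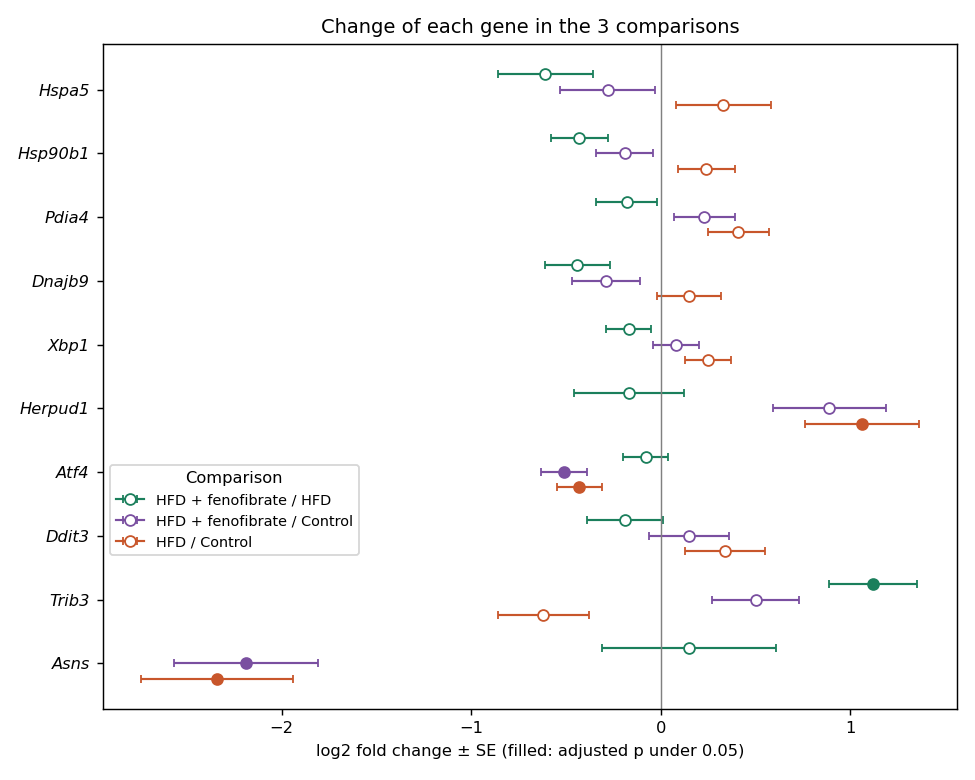
Log2 fold changes of the 10 genes with SE bars in the 3 comparisons, by edgeR with 4 libraries per group; filled points passed an adjusted p of 0.05. Asns lies near -2.34 for HFD over Control and -2.19 for fenofibrate over Control, and Trib3 at 1.12 for fenofibrate over HFD.

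The ER chaperones were highest on average in HFD livers, but none of the 4 passed in any comparison. Hspa5 (ENSMUSG00000026864, chromosome 2, 34771970 to 34777547 in GRCm38) encodes BiP, the main HSP70 chaperone of the ER, which also holds the stress sensors inactive. It stood at 321, 582, 387 and 406 CPM in fenofibrate libraries 1 to 4, at 590, 890, 678 and 433 CPM in HFD libraries 1 to 4, and at 347, 665, 366 and 682 CPM in Control libraries 1 to 4. HFD library 2 was the highest of all 12 and fenofibrate library 1 the lowest, and all 3 groups overlapped. The means were 424 ± 111 CPM with fenofibrate, 648 ± 191 CPM in HFD and 515 ± 183 CPM in Control (SD, n = 4 each). The log2 fold change was -0.61 ± 0.25 for fenofibrate over HFD (adjusted p = 0.113) and 0.33 ± 0.25 for HFD over Control (adjusted p = 0.438). Control libraries formed a low pair (1 and 3) and a high pair (2 and 4), so the spread within Control was as wide as the differences between group means.

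Hsp90b1 (ENSMUSG00000020048, chromosome 10, 86690209 to 86705509) encodes GRP94, the HSP90 of the ER. It stood at 134, 182, 155 and 152 CPM in fenofibrate libraries 1 to 4, at 194, 241, 213 and 190 CPM in HFD libraries and at 136, 227, 148 and 201 CPM in Control libraries. Every fenofibrate library was below every HFD library, while Control overlapped both. The log2 fold change was -0.43 ± 0.15 for fenofibrate over HFD (adjusted p = 0.0686), just short of the threshold, and 0.24 ± 0.15 for HFD over Control (adjusted p = 0.342). Hsp90b1 passed with DESeq2 (adjusted p = 0.0385), with only the 8 libraries compared (0.0267), and without fenofibrate library 2 (-0.51, adjusted p = 0.0411), Control library 1 (0.0409) or Control library 2 (0.0429). Fenofibrate library 2 was the highest of its group, so leaving it out widens the difference. With 1 library left out at a time, Hsp90b1 gave -0.51 to -0.36, with adjusted p of 0.0409 to 0.176. Its exons share 415 bases with 1810014B01Rik on the other strand, a gene with 622 counts over all 12 libraries.

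Pdia4, a disulfide isomerase of the ER (ENSMUSG00000025823, chromosome 6, 47796141 to 47813430), stood at 111, 167, 136 and 125 CPM in fenofibrate libraries, 151, 188, 147 and 127 CPM in HFD libraries and 89.4, 141, 100 and 130 CPM in Control libraries. All groups overlapped. HFD over Control gave 0.41 ± 0.16 (adjusted p = 0.111) and fenofibrate over HFD -0.18 ± 0.16 (adjusted p = 0.461). Dnajb9, the ER co-chaperone ERdj4 (ENSMUSG00000014905, chromosome 12, 44205559 to 44210326), stood at 41.9, 66.0, 44.3 and 49.8 CPM with fenofibrate, 59.8, 82.9, 76.4 and 54.2 CPM in HFD and 54.0, 68.3, 48.4 and 76.5 CPM in Control. Its groups overlapped too, with log2 fold changes of -0.44 ± 0.17 for fenofibrate over HFD (adjusted p = 0.102) and 0.15 ± 0.17 for HFD over Control (adjusted p = 0.645). Without fenofibrate library 2, the highest of its group for both, fenofibrate over HFD passed for Dnajb9 (-0.59, adjusted p = 0.0295) and for Hspa5 (-0.80, adjusted p = 0.0466). Dropping the highest library of the lower group widens the difference, so these passes are no separate evidence of a fall. Leaving out other single libraries gave weaker values. These ran to -0.33 for Dnajb9 (adjusted p up to 0.249) and to -0.42 for Hspa5 (adjusted p up to 0.297).

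In the authors' deposited table, which compares fenofibrate with HFD on those 8 libraries, Hspa5 had a log2 fold change of -0.62 with adjusted p = 0.0230, and Hsp90b1 had -0.44 with adjusted p = 0.00405. Dnajb9 had -0.44 with adjusted p = 0.0552 in the authors' deposited table. The sizes were thus near those given above, while the first 2 genes passed in that table.

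**Figure D2:**
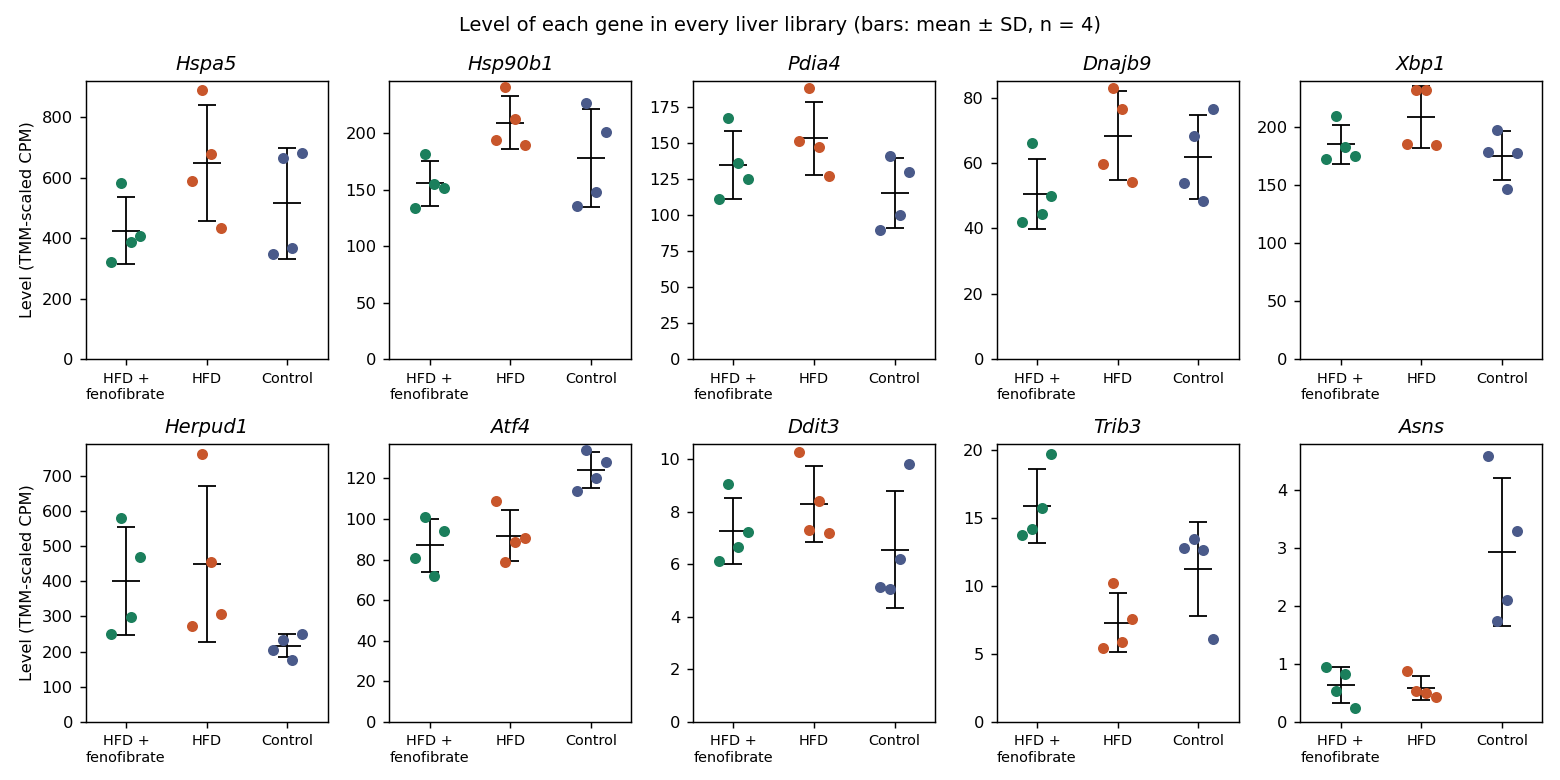
TMM-scaled CPM of each of the 10 genes in every library, with the group mean and SD, for fenofibrate, HFD and Control (4 libraries each). Asns libraries of Control lie at 1.75 to 4.59 CPM, above the 0.246 to 0.939 CPM of the other groups, and Herpud1 has its widest spread in HFD, 273 to 763 CPM.

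Xbp1 (ENSMUSG00000020484, chromosome 11, 5520659 to 5525893) encodes the transcription factor made when IRE1 splices its mRNA. Counts per gene do not separate the spliced from the unspliced mRNA. Xbp1 stood at 173, 210, 183 and 175 CPM in fenofibrate libraries, 186, 232, 232 and 185 CPM in HFD libraries and 179, 198, 147 and 178 CPM in Control libraries. The groups overlapped, and Xbp1 varied least among the 10 genes within the fenofibrate group (coefficient of variation 9.02%). HFD over Control gave 0.25 ± 0.12 (adjusted p = 0.179) and fenofibrate over HFD -0.17 ± 0.12 (adjusted p = 0.325).

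Herpud1 (ENSMUSG00000031770, chromosome 8, 94386438 to 94395377), an ER membrane protein that organises ER-associated degradation, rose in HFD livers. It stood at 251, 582, 299 and 470 CPM in fenofibrate libraries, 273, 763, 456 and 306 CPM in HFD libraries and 205, 232, 176 and 251 CPM in Control libraries. Every HFD library was above every Control library, and HFD library 2 was far above the rest. The means were 450 ± 224 CPM in HFD and 216 ± 32.6 CPM in Control (SD, n = 4 each), a log2 fold change of 1.06 ± 0.30 (adjusted p = 0.0299). The coefficient of variation was 38.2% with fenofibrate and 49.7% in HFD, against 15.1% in Control. The call was lost without HFD library 2 (0.68, adjusted p = 0.112), HFD library 3 (adjusted p = 0.0539), Control library 1 (0.071) or Control library 3 (0.0774).

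Herpud1 averaged 400 ± 153 CPM with fenofibrate and did not pass against HFD (-0.17 ± 0.29, adjusted p = 0.733). Against Control the difference was 0.89 ± 0.30 (adjusted p = 0.0744), with no overlap once the values are taken beyond rounding. It passed without fenofibrate library 1 (1.08, adjusted p = 0.0425) and without fenofibrate libraries 1 and 3 (1.3, adjusted p = 0.0354). Those libraries were the lowest of their group for Herpud1, so leaving them out widens the difference. Herpud1 also passed with only the 8 libraries compared (adjusted p = 0.0329) and with no low-count filter (0.0166). Over all fits with 1 library left out, the difference ran from 0.66 to 1.08, with adjusted p of 0.0312 to 0.17.

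Atf4 (ENSMUSG00000042406, chromosome 15, 80255184 to 80257540), the transcription factor on which the PERK and GCN2 signals converge, was lower in both high-fat diet groups. It stood at 80.6, 101, 72.1 and 94.0 CPM in fenofibrate libraries, 109, 79.0, 88.4 and 90.6 CPM in HFD libraries and 114, 134, 120 and 128 CPM in Control libraries. All 8 libraries of the high-fat diet groups lay below all 4 Control libraries, and those groups overlapped each other. Atf4 fell in HFD relative to Control (-0.43 ± 0.12, adjusted p = 0.0282) and in fenofibrate livers relative to Control (-0.51 ± 0.12, adjusted p = 0.0154). Atf4 is regulated mostly through translation, which counts of RNA do not measure.

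The Atf4 calls by edgeR were close to the threshold. For HFD over Control, Atf4 also passed with DESeq2 (adjusted p = 0.011) and in the authors' deposited table (-0.42, adjusted p = 0.00535). The edgeR call of HFD over Control was lost without Control library 2 or 4 or HFD library 2, 3 or 4 (adjusted p = 0.0663, 0.0596, 0.0908, 0.0639 and 0.069, in that order). That of fenofibrate over Control was lost without fenofibrate library 1 (adjusted p = 0.0578), library 3 (0.0603) or both (-0.33, adjusted p = 0.243). Fenofibrate over HFD gave -0.08 ± 0.12 (adjusted p = 0.7).

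Ddit3 (ENSMUSG00000025408, chromosome 10, 127290774 to 127296288) encodes CHOP, the transcription factor tied to cell death in prolonged ER stress. Its level was low, with 78 to 158 counts per library. It stood at 6.13, 9.06, 6.67 and 7.24 CPM with fenofibrate, 10.3, 7.30, 8.41 and 7.19 CPM in HFD and 5.15, 5.06, 6.22 and 9.83 CPM in Control. All groups overlapped, and HFD over Control did not pass (0.34 ± 0.21, adjusted p = 0.325), nor did fenofibrate over HFD (-0.19 ± 0.20, adjusted p = 0.557). Without Control library 4, where Ddit3 was highest of its group, HFD over Control passed (0.60, adjusted p = 0.0454). Dropping that library widens the difference, so this pass is no separate evidence of a rise. Leaving out other single libraries gave values down to 0.22 and adjusted p up to 0.595. Ddit3 shares 68 exon bases with Mars on the other strand, and the sources used here do not say whether counting used strand.

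Trib3 (ENSMUSG00000032715, chromosome 2, 152337422 to 152344032), a pseudokinase induced by ATF4 and CHOP that binds AKT, was the 1 gene of the 10 that rose with fenofibrate. It stood at 13.7, 14.2, 15.7 and 19.7 CPM in fenofibrate libraries, 5.40, 10.2, 5.89 and 7.56 CPM in HFD libraries and 12.8, 13.4, 12.6 and 6.10 CPM in Control libraries. Every fenofibrate library was above every library of the other groups, while HFD overlapped Control through Control library 4. The means were 15.8 ± 2.74 CPM with fenofibrate and 7.28 ± 2.19 CPM in HFD (SD, n = 4 each), from 236 to 400 and 80 to 174 counts per library. The difference was 2.17-fold, a log2 fold change of 1.12 ± 0.23 (adjusted p = 0.00796).

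The call of Trib3 for fenofibrate over HFD held when any 1 library was left out, with log2 fold changes of 0.99 to 1.33 and adjusted p of 0.00317 to 0.0285. Without fenofibrate libraries 1 and 3 together the size was 1.22 with adjusted p = 0.0682. The log2 fold change of Trib3 in the authors' deposited table was 1.11, with adjusted p = 5.88e-06. HFD over Control gave -0.62 ± 0.24 (adjusted p = 0.104), and passed when Control library 4 (-0.82, adjusted p = 0.0149) or, in its place, HFD library 2 (-0.83, adjusted p = 0.0442) was left out. Control library 4 was the lowest of its group and HFD library 2 the highest of its own, so either omission widens the difference. Leaving out other single libraries gave values as small as -0.50 and adjusted p up to 0.24. Fenofibrate over Control gave 0.50 ± 0.23 (adjusted p = 0.19).

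Asns (ENSMUSG00000029752, chromosome 6, 7675169 to 7693254), asparagine synthetase and the classic target of the amino acid response, had the largest differences of the 10 genes. It stood at 0.939, 0.540, 0.827 and 0.246 CPM in fenofibrate libraries, from 19, 9, 17 and 5 counts. HFD libraries had 0.877, 0.530, 0.491 and 0.434 CPM from 13, 9, 8 and 7 counts, and Control libraries 4.59, 1.75, 2.11 and 3.30 CPM from 82, 27, 34 and 53 counts. Every Control library was above all 8 others, and the high-fat diet groups overlapped each other. Asns fell 5.05-fold in HFD relative to Control (log2 fold change -2.34 ± 0.40, adjusted p = 0.00139) and 4.56-fold in fenofibrate livers relative to Control (-2.19 ± 0.38, adjusted p = 0.00245).

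Both Asns calls held when any 1 library was left out, with adjusted p of 0.00089 to 0.00712 for HFD over Control and 0.00246 to 0.00941 for fenofibrate over Control. Without fenofibrate libraries 1 and 3, fenofibrate over Control gave -2.91 (adjusted p = 0.00967). Fenofibrate over HFD gave 0.15 ± 0.46 (adjusted p = 0.858), an error that leaves changes of moderate size undetectable at these counts. Atf4 and Asns were thus both lower in the 2 high-fat diet groups than in Control. Trib3, another ATF4 target, did not pass over Control in HFD (-0.62 ± 0.24, adjusted p = 0.104) or with fenofibrate (0.50 ± 0.23, adjusted p = 0.19). Its call was in a different comparison, fenofibrate over HFD.

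Levels per kilobase used the length of all annotated exons of a gene merged. That length can exceed the mRNA present, so the order of genes is approximate and depends on the annotation. On this scale mean levels in fenofibrate livers ran from 172 ± 65.6 CPM per kb for Herpud1 and 100 ± 26.3 for Hspa5 to 7.44 ± 1.29 for Trib3, 4.25 ± 0.744 for Ddit3 and 0.233 ± 0.114 for Asns. HFD livers had 193 ± 95.9 CPM per kb for Herpud1 and 153 ± 45.1 for Hspa5, against 92.5 ± 14.0 and 122 ± 43.3 in Control. Xbp1 (57.0 ± 5.14 CPM per kb) and Pdia4 (56.2 ± 9.90) came next in fenofibrate livers, followed by Hsp90b1 (38.6 ± 4.83), Atf4 (36.9 ± 5.55) and Dnajb9 (19.8 ± 4.27). Xbp1 and Pdia4 differed by less than their spread between libraries, as did Hsp90b1 and Atf4. Trib3 stood above Ddit3 in fenofibrate livers, whereas in HFD livers Trib3 (3.42 ± 1.03) and Ddit3 (4.84 ± 0.83) came in the other order.

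Within each group the ER genes moved together from library to library. Over Hspa5, Hsp90b1, Pdia4, Dnajb9, Xbp1 and Herpud1, fenofibrate library 2 was the highest of its group in 6 of 6 genes and fenofibrate library 1 the lowest in 6 of 6. HFD library 2 was the highest of its group in 5 and HFD library 4 the lowest in 5. In Control, libraries 2 and 4 were the highest in 3 genes each and libraries 1 and 3 the lowest in 3 each. With group means removed, Pearson's r between the 4 chaperone genes over 12 libraries was 0.84 to 0.96, and that of Hspa5 was 0.76 with Xbp1 and 0.77 with Herpud1. Hspa5 had r of 0.44 with Ddit3, 0.28 with Atf4, -0.15 with Trib3 and -0.28 with Asns. These r values describe 12 libraries that share their scaling, and no p is given.

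**Figure D3:**
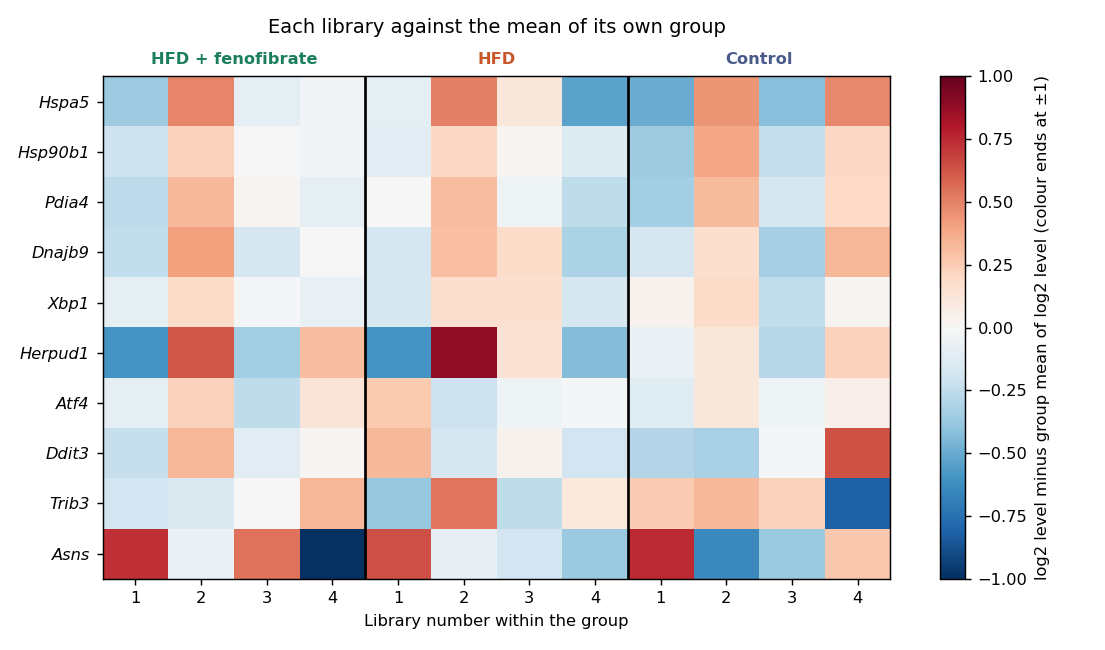
Log2 deviation of each gene from its group mean in each of the 12 libraries, with fenofibrate, HFD and Control libraries side by side. The ER genes are high together in fenofibrate library 2 and HFD library 2 and low together in fenofibrate library 1, where Asns was the highest of its group at 0.939 CPM.

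The low values of the ER genes in fenofibrate library 1 stood beside its 2064.9 CPM of acinar markers and 1185.1 CPM of erythroid markers, with 202 to 397 CPM of erythroid markers in fenofibrate libraries 2 to 4. Acinar cells are known for abundant ER chaperones. The 8 plasma and B cell markers, from cells also rich in ER chaperones, summed to 25.5 to 33.2 CPM with fenofibrate, 41.1 to 55.6 CPM in HFD and 19.5 to 40.9 CPM in Control. The part of these cells in the differences of the ER genes was not tested, and in whole tissue fewer cells of a type and less RNA per cell cannot be told apart. Clock genes also differed between groups. Dbp, a clock output gene, stood at 20.3 to 88.1 CPM with fenofibrate, 7.63 to 36.5 CPM in HFD and 1.36 to 2.18 CPM in Control. Arntl, the core clock activator, stood at 7.74 to 13.3 CPM with fenofibrate and 7.37 to 18.4 CPM in HFD, against 27.3 to 38.5 CPM in Control. As for Atf4 and Asns, all Control libraries were above all others. The part of the clock in these results was not tested.

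The genes whose levels were most like Hspa5 over the 12 libraries were Manf (r = 0.984), Zfp330 (0.933), Slc30a6 (0.916), Creld2 (0.911) and Stam (0.902). Manf and Creld2 encode ER stress-inducible proteins of the ER lumen. Manf stood at 21.4, 44.3, 27.0 and 27.6 CPM in fenofibrate libraries, 36.6, 65.1, 53.1 and 31.6 CPM in HFD libraries and 23.4, 43.0, 24.6 and 48.5 CPM in Control libraries. Its order of libraries was close to that of Hspa5, and with group means removed its r was 0.981. For Xbp1 the nearest genes were Ufl1 (0.88), Pparg (0.866), Tbccd1 (0.861), Gmppb (0.856) and Ssr1 (0.847). For Asns they were Insc (0.952), Clint1 (0.945), Dmxl2 (0.942), Lrig2 (0.924) and Map4k4 (0.92). With group means removed, Map4k4 had r of 0.506 with Asns, whereas Insc had 0.916. Among the other 23 tested genes with an ERSE or ERSE-II in the promoter window, the median r with Hspa5 was 0.27, against -0.04 over all genes tested. An r over 0.7 was found for 348 of all 13477 genes tested and for 4 of the 23: Creld2 (0.911), Pdia6 (0.873), Canx (0.82) and Hnrnpa3 (0.762).

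Counts of the lists below are to be read beside the shares over all genes tested. These were 6.89% risen and 6.59% fallen for fenofibrate over HFD, 6.13% and 6.64% for HFD over Control, and 4.86% and 4.31% for fenofibrate over Control. Of 18 other genes of ER chaperones and oxidative folding, 0 rose and 4 fell with fenofibrate relative to HFD (median log2 fold change -0.19, against 0.01 over all genes tested). Canx, the lectin chaperone calnexin, averaged 203 ± 16.7 CPM with fenofibrate and 291 ± 28.8 CPM in HFD (-0.52 ± 0.10, adjusted p = 0.00489). The disulfide isomerase gene Pdia6 fell to 127 ± 22.8 CPM with fenofibrate, against 188 ± 38.5 CPM in HFD (adjusted p = 0.0399). The ER oxidase gene Ero1lb fell to 47.7 ± 5.17 CPM with fenofibrate, against 69.2 ± 13.9 CPM in HFD (adjusted p = 0.0166), and Ero1l to 14.1 ± 1.26 CPM with fenofibrate, against 17.6 ± 1.24 CPM in HFD (adjusted p = 0.045). In HFD relative to Control, 2 of the 18 rose and 0 fell: Txndc5 (0.37 ± 0.09, adjusted p = 0.0164) and Ero1lb (0.51 ± 0.13, adjusted p = 0.0195). Against Control, fenofibrate livers had 0 risen and 1 fallen, the co-chaperone gene Dnajc3 (-0.45 ± 0.12, adjusted p = 0.032).

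Of 16 genes of ER translocation and signal peptide processing, 0 rose and 7 fell with fenofibrate relative to HFD (median -0.35). Sec61g, a subunit of the translocation channel, averaged 8.98 ± 1.75 CPM with fenofibrate and 15.1 ± 1.99 CPM in HFD (-0.75 ± 0.17, adjusted p = 0.0104). Ssr3, of the translocon-associated complex, averaged 197 ± 24 CPM with fenofibrate and 279 ± 23.8 CPM in HFD (-0.50 ± 0.12, adjusted p = 0.0149), and the signal peptidase genes Sec11c (-0.51 ± 0.14) and Sec11a (-0.37 ± 0.11) fell too. In HFD relative to Control, 0 of the 16 passed in either direction. Its most abundant members were Ssr3 (0.27 ± 0.12, adjusted p = 0.151) and Srpr (-0.20 ± 0.11, adjusted p = 0.238). Against Control, fenofibrate livers had 1 fallen, Spcs2 (-0.41 ± 0.12, adjusted p = 0.04995).

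Of 18 genes of ER-associated degradation, 0 rose and 3 fell with fenofibrate relative to HFD: Edem3 (-0.44 ± 0.11, adjusted p = 0.0159), Selenok (-0.50 ± 0.14, adjusted p = 0.0345) and Derl2 (-0.35 ± 0.11, adjusted p = 0.0475). In HFD relative to Control, Derl2, a channel component of the degradation machinery, rose to 95.8 ± 5.35 CPM, against 64.9 ± 5.11 CPM in Control (adjusted p = 0.00416). In that comparison 1 of the 18 rose and 2 fell: Os9, a lectin of the pathway (-0.41 ± 0.09, adjusted p = 0.00967), and Nploc4 (-0.34 ± 0.10, adjusted p = 0.0322). Over all genes tested, 12.8% were called there. Between fenofibrate and Control 0 of the 18 passed.

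Without fenofibrate libraries 1 and 3, which leaves 2 libraries in that group, 0 chaperone, 0 translocation and 0 degradation genes fell relative to HFD, and over all genes the calls numbered 55 risen and 69 fallen, against 928 and 888 with all libraries. The 14 genes that had fallen still had negative log2 fold changes, from -0.68 for Sec61g to -0.17 for Derl2, with Canx at -0.43 ± 0.13 (adjusted p = 0.13) and Ssr3 at -0.41 ± 0.15 (adjusted p = 0.209). They were picked because they fell in the fit with all libraries, and the libraries kept were part of that fit. The kept signs are therefore no separate evidence of a fall. The median log2 fold change without both libraries was -0.11 for the chaperone, -0.24 for the translocation and -0.04 for the degradation genes. Against Control, Dnajc3 (-0.32, adjusted p = 0.323) and Spcs2 (-0.25, adjusted p = 0.463) did not pass without them. Leaving out 1 library at a time gave 1 to 6 fallen chaperone genes, 1 to 10 fallen translocation genes and 0 to 4 fallen degradation genes. With library totals alone in place of TMM scaling, the median of all genes moved to 0.18 for fenofibrate over HFD, to 0.20 for fenofibrate over Control and to 0.03 for HFD over Control. Under that scaling 2059 genes rose and 451 fell with fenofibrate relative to HFD, and 1 chaperone gene, 2 translocation genes and 0 degradation genes fell, while 0 chaperone, 1 translocation and 2 degradation genes rose.

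**Figure D4:**
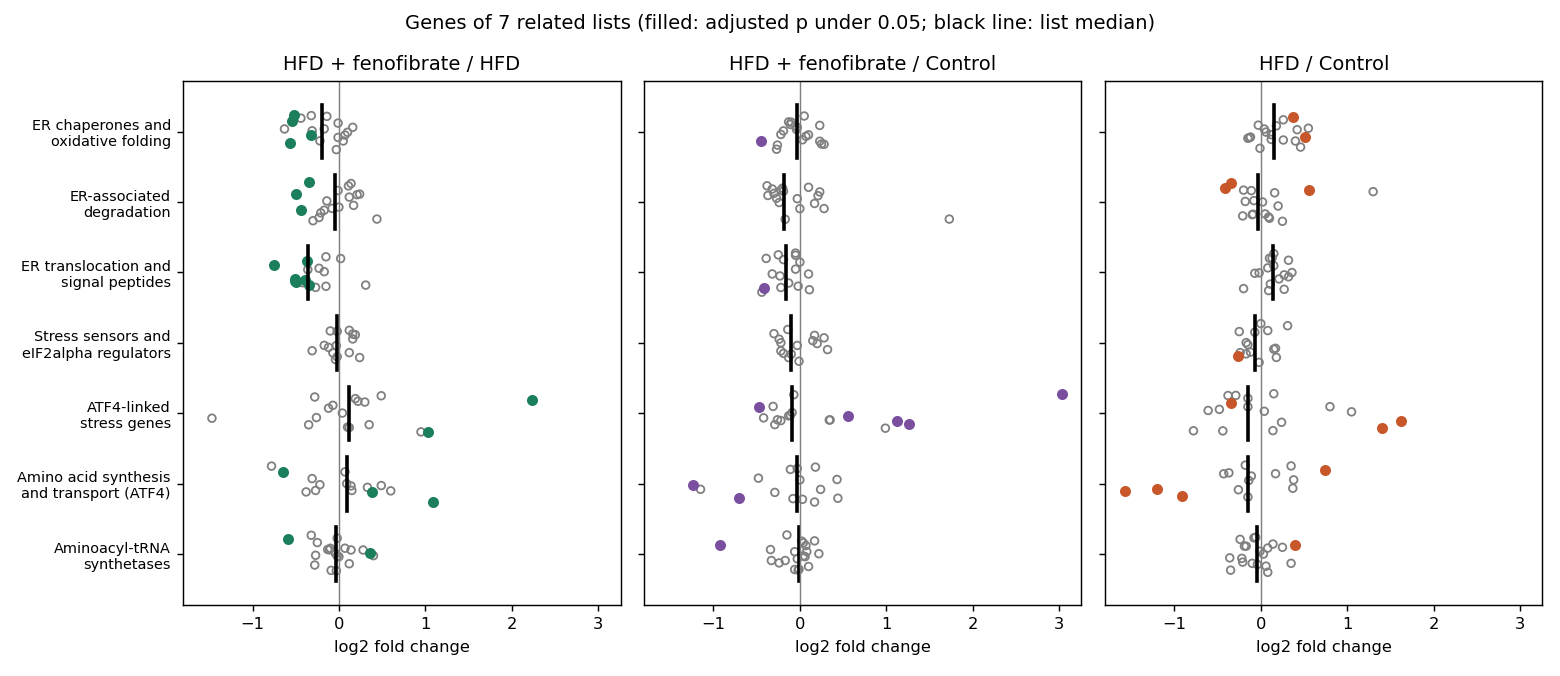
Log2 fold changes of the genes of 7 pathway lists in the 3 comparisons, with the median of each list; filled points passed an adjusted p of 0.05 by edgeR. For fenofibrate over HFD, the translocation genes lie lowest, with a median of -0.35, and the ATF4-linked list has a median of 0.12.

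Of 15 genes of the stress sensors and the eIF2alpha pathway, 1 changed in any comparison. Eif2ak1, the heme-regulated eIF2alpha kinase, fell in HFD (38 ± 1.42 CPM against 45.6 ± 2.90 CPM in Control, -0.26 ± 0.08, adjusted p = 0.0404). The liver-enriched ER transcription factor gene Creb3l3 stood at 332 ± 13.1 CPM with fenofibrate and 374 ± 17.6 CPM in HFD and did not pass (-0.17 ± 0.09, adjusted p = 0.218).

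Of 17 ATF4-linked stress genes tested, 2 rose and 1 fell in HFD relative to Control, where 12.8% of all genes tested were called. Chac1, which degrades glutathione, averaged 3.16 ± 1.33 CPM in HFD and 1.04 ± 0.354 CPM in Control (1.62 ± 0.32, adjusted p = 0.00377), and Gadd45a, a growth arrest gene, 1.58 ± 0.419 CPM in HFD and 0.597 ± 0.132 CPM in Control (1.40 ± 0.30, adjusted p = 0.00619). The autophagy receptor gene Sqstm1 fell (-0.35 ± 0.11, adjusted p = 0.0485). Chac1 and Gadd45a, both at low levels, thus rose in the comparison in which Atf4 and Asns fell. The other genes of the list did not share that rise: 14 of the 17 did not pass. The median log2 fold change of the list was -0.15, against -0.02 over all genes tested. With fenofibrate relative to HFD, 2 rose and 0 fell. Vldlr, a lipoprotein receptor, averaged 10.6 ± 2.43 CPM with fenofibrate and 2.27 ± 1.32 CPM in HFD (2.23 ± 0.32, adjusted p = 0.00112), and Bbc3, a gene promoting cell death, 11.9 ± 1.98 CPM with fenofibrate and 5.82 ± 1.25 CPM in HFD (1.03 ± 0.16, adjusted p = 0.00192). Against Control, fenofibrate livers had 4 risen and 1 fallen, with Vldlr at 3.03 ± 0.35, Chac1 at 1.26 ± 0.32, Gadd45a at 1.12 ± 0.30 and Sqstm1 at -0.47 ± 0.11. Without fenofibrate libraries 1 and 3, Vldlr passed over HFD (2.02, adjusted p = 0.03) and over Control (2.83, adjusted p = 0.0032). The calls of Bbc3 over HFD (0.84, adjusted p = 0.0567) and of Chac1 (1.35, adjusted p = 0.0931), Gadd45a (1.34, adjusted p = 0.0602) and Sqstm1 (-0.45, adjusted p = 0.109) over Control were lost.

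Of 15 genes of amino acid synthesis and transport tested, 1 rose and 3 fell in HFD relative to Control. Cth, which makes cysteine from cystathionine, averaged 412 ± 116 CPM in HFD and 1223 ± 195 CPM in Control (-1.57 ± 0.21, adjusted p = 0.000248). The glutamine transporter gene Slc1a5 fell to 1.98 ± 0.281 CPM in HFD, against 4.55 ± 0.412 CPM in Control (adjusted p = 0.000833), and the alanine aminotransferase gene Gpt2 to 242 ± 35.2 CPM in HFD, against 456 ± 76.0 CPM in Control (adjusted p = 0.00114). The neutral amino acid transporter gene Slc1a4 rose (0.74 ± 0.20, adjusted p = 0.0248). With fenofibrate relative to HFD, Gpt2 rose to 516 ± 96.5 CPM (1.09 ± 0.15, adjusted p = 0.000831). Shmt2, a mitochondrial serine hydroxymethyltransferase, rose (0.38 ± 0.10, adjusted p = 0.0259), while Psph, the last enzyme of serine synthesis, fell (-0.65 ± 0.19, adjusted p = 0.0354). Relative to Control, fenofibrate livers had lower Cth, at 519 ± 144 CPM (-1.24 ± 0.21, adjusted p = 0.00216), and lower Slc1a5 (-0.71 ± 0.18, adjusted p = 0.0231). These were the 2 of the 15 that passed between fenofibrate and Control. Without fenofibrate libraries 1 and 3, Gpt2 over HFD (1.01, adjusted p = 0.0129) and Cth over Control (-1.21, adjusted p = 0.0364) passed. Shmt2 (0.37, adjusted p = 0.214) and Psph (-0.51, adjusted p = 0.326) over HFD and Slc1a5 over Control (-0.90, adjusted p = 0.0568) did not.

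Of 20 tRNA synthetase genes, which charge tRNAs with amino acids and include ATF4 targets, 1 rose and 0 fell in HFD relative to Control, namely Farsb (0.39 ± 0.12, adjusted p = 0.0443). Over all genes tested, 12.8% were called in that comparison. With fenofibrate relative to HFD, Gars rose (0.36 ± 0.09, adjusted p = 0.0185) and Tars fell. Tars averaged 96.5 ± 9.78 CPM with fenofibrate, 145 ± 10.0 CPM in HFD and 184 ± 38.2 CPM in Control, with log2 fold changes of -0.59 ± 0.13 over HFD (adjusted p = 0.011) and -0.93 ± 0.13 over Control (adjusted p = 0.000657). Without fenofibrate libraries 1 and 3, Tars passed over Control (-0.87, adjusted p = 0.0162) but not over HFD (-0.53, adjusted p = 0.158), and Gars did not pass over HFD (0.30, adjusted p = 0.227).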

How the data were processed

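Liver RNA counts of 12 libraries were taken from 2 deposited tables of 8 libraries each, both holding the 4 HFD libraries. They hold the authors' unnormalised count of reads for each Ensembl gene and library. The submitters' processing notes list HISAT2 2.0.5, HTSeq 0.6.0 and StringTie 1.3.2d, with builds mm8 and mm9. Positions in the tables matched GENCODE M21 (GRCm38) for 23225 of 25113 identifiers (92.5%). The deposited log2 fold change, fold change (a ratio), mean normalised signal per gene, p-value and adjusted p-value are the authors' own, per the file headers, which name no test.

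The tables were joined by gene identifier (22657 shared), and a gene absent from one table (1389 or 1118 genes) was given counts of 0 there. HFD counts differed in 0 cells. Genes passing edgeR 4.0.16 filterByExpr (13477, holding 99.87% of counts) were fitted in R 4.3.3 by a quasi-likelihood model with TMM scaling and 1 coefficient per group over 12 libraries. P-values were adjusted by Benjamini-Hochberg over all genes tested, with a prior count of 0.125 for fold changes. SE is the size of the log2 fold change divided by the square root of F. Marker sums are CPM of total counts without TMM. Libraries of 1 group differed by chi-square per gene of 13.869 to 38.479, above counting error. Exact motif matches were sought on both strands of RefSeq promoters.

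The 10 genes and all lists were chosen with earlier results of these data known. The text names all 10 genes, up to 4 passing genes of each list by smallest p (the 2 most abundant where none passed, not all of them named here), and the 5 genes most like Hspa5, Xbp1 and Asns by Pearson's r of log2 CPM. Alternatives were other scalings and filters, DESeq2 1.42.0, the replicate number as a block, only the 8 libraries compared, a threshold of 0.01, each library left out, and fenofibrate libraries 1 and 3 left out together. The fit with library totals only, and values of the lists under each setting, were added after the data were seen.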

Additional observations from a re-analysis of the deposited data

Results flagged for a closer look

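Over 30 sets of 4 libraries (10 genes in 3 groups), 1 held a library far from the others, where chance gives about 1 in 20. So 1 in 30 is no more than chance gives. Trib3 stood at 6.1 CPM in Control library 4, against 12.6 to 13.4 CPM in the other Control libraries. The gap to the nearest was 0.882 of the range of the group, above Dixon's critical value for 4 samples. Without that library, Trib3 fell in HFD relative to Control (-0.82, adjusted p = 0.0149, edgeR). The library was picked for its low Trib3 value, so this pass follows from the choice and is no separate evidence of a fall. Over all fits with 1 library left out, adjusted p ran from 0.0149 to 0.24.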

How the results depend on the processing

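Counts below are of genes risen and fallen by edgeR at an adjusted p under 0.05 unless a setting differs, and the causes of the changes were not tested unless the setting itself gives fewer libraries. For HFD over Control, a threshold of 0.01 gave 343 risen and 360 fallen genes and library totals only gave 523 fallen. Of the 10 genes, 2 rose with the replicate number as a block (Pdia4 at 0.42 passed besides Herpud1), and at 0.01 the counts were 0 risen and 1 fallen. Leaving out 1 library gave 550 to 832 risen and 554 to 930 fallen genes, with 0 to 2 and 1 to 2 of the 10. For fenofibrate over HFD, a threshold of 0.01 gave 200 and 262, library totals only 2059 and 451, and leaving out fenofibrate libraries 1 and 3 gave 55 and 69 with 0 of the 10 risen. Of the 10, 1 fell (Hsp90b1) with the block, with only the 8 libraries and with DESeq2. Leaving out 1 library gave 282 to 1210 and 328 to 1206 genes, with 1 of the 10 risen each time and 0 to 3 fallen. For fenofibrate over Control, a threshold of 0.01 gave 235 and 219, library totals only 2119 and 298, and without fenofibrate libraries 1 and 3 the counts were 215 and 158. Of the 10, 1 rose with no filter, with the block, with only the 8 libraries or without fenofibrate libraries 1 and 3 (Herpud1), 2 with library totals only, and 1 fell at 0.01 or without those libraries. Leaving out 1 library gave 383 to 858 and 310 to 852 genes, with 0 to 1 and 1 to 2 of the 10.

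No called value of the 10 genes changed direction under these settings. Values not called did for fenofibrate over HFD: Herpud1 was 0.21 without HFD library 2, 0.01 without fenofibrate library 1 and 0.23 without fenofibrate libraries 1 and 3 (-0.40 to 0.21 with 1 library left out). Atf4 was 0.02 without HFD library 1, 0.01 without fenofibrate library 3, and 0.09 without fenofibrate libraries 1 and 3 or with library totals only (-0.16 to 0.02). Asns was -0.09 without fenofibrate library 1, 0.0 without fenofibrate library 3 and -0.58 without both (-0.09 to 0.42), and was not tested with only the 8 libraries. Hsp90b1 over Control was 0.03 with library totals only. In all, 615 values of single genes kept their direction and side of the threshold, 20 came to pass, 13 ceased to and 11 changed sign. Same-numbered libraries were not treated as pairs, since their deviations from group means had r from -0.218 to 0.181. Depth limits Asns and Ddit3 most, at 5 to 82 and 78 to 158 counts per library.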

Other observations

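Derl3, a secretory-cell relative of Derl2 in the degradation list, was singled out after its values were seen. It stood at 1.14, 1.32, 2.14 and 0.394 CPM in fenofibrate libraries, 0.27, 2.12, 1.04 and 0.186 CPM in HFD libraries and 0.0, 0.324, 0.622 and 0.56 CPM in Control libraries, from at most 44 counts. Its highest HFD library was library 2, in which Hspa5 and Herpud1 were also highest of that group, and it passed in no comparison (adjusted p = 0.164 for fenofibrate over Control).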
